A study of Homo sapiens with 6 samples.

Results

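The zinc finger genes that carry a ZNF name are described here in MDA-MB-231 cells, an established line of triple-negative breast cancer, after transfection with an siRNA against NRDE2. Members were all rows named ZNF plus a number, with at most 1 letter after it, whose mean over the 6 libraries was at least 2 FPKM (fragments scaled by transcript length and by library depth). The rule chose 294 of the 527 ZNF-named rows among the 25365 rows of the table, and it used the mean level over both groups, not the difference between them. Of the 233 ZNF-named rows under the threshold, 17 were at 0 in every library. The nearest outside were ZNF79 at 1.96 and ZNF764 at 2.00 FPKM, and the nearest inside were ZNF652 at 2.01 and ZNF671 at 2.03 FPKM. All 294 members also passed the filter for testing. The control group, si-Control, had 3 libraries of cells given a negative control siRNA (Ambion AM4611), and the other group, si-NRDE2-2, had 3 libraries of cells given 1 siRNA against NRDE2 (Ambion s30064). Both groups received 20 nM siRNA with a lipid reagent and were harvested after 48 h, and polyadenylated RNA was sequenced from stranded libraries. With 1 NRDE2 siRNA in 1 cell line, loss of NRDE2 and other effects of that siRNA cannot be told apart. The labels do not say whether the replicates are separate cultures. The p-values therefore describe the spread among the libraries at hand, part or all of which may be technical. Where the 3 values of a group are given, they follow the replicate numbers.

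A classical zinc finger is a short fold of protein in which a pair of cysteines and a pair of histidines hold a zinc ion, and fingers in tandem read DNA through successive bases. Most ZNF genes of primates encode such tandem arrays, many of them joined to a KRAB box, which recruits the co-repressor TRIM28 and through it the histone methyltransferase SETDB1 and heterochromatin proteins. KRAB zinc finger proteins are best known for silencing retroelements, and their genes lie in clusters that grew by duplication, the largest of them on chromosome 19. Other ZNF genes carry a SCAN domain, which pairs the proteins with each other, or bind RNA, ribosomes or chromatin complexes.

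The members were told apart by sequence. A script found a coding sequence in GENCODE release 29 for 287 of the 294 members, a KRAB box in 169 and a SCAN domain in 17. The median number of fingers was 12 in members with a KRAB box and 6.5 in those without, and the longest array had 33. In 6 members, ZNF185, ZNF330, ZNF451, ZNF703, ZNF839 and ZNF862, no finger of the classical spacing was found. One finger unit of each of 4 members that changed is shown to make the family's repeat visible, 5′ to 3′ from the coding sequence, with the codons of the zinc-holding cysteines and histidines in capitals.
ZNF600: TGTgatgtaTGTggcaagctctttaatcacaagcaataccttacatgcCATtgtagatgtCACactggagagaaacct
ZNF12: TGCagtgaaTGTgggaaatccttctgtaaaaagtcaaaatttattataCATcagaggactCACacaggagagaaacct
ZNF165: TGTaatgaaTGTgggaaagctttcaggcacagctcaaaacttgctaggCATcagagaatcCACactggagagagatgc
ZNF24: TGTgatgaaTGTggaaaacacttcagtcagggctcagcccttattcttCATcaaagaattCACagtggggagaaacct
Each unit spans 78 bases, and the stretch after the last histidine is the linker to the next finger. ZNF600, with 18 fingers of this spacing, and ZNF12, with 15, are KRAB genes, while ZNF165, with 5, and ZNF24, with 4, carry a SCAN domain.

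NRDE2, the siRNA's target and a partner of the nuclear RNA helicase MTREX, went from 4.21 ± 0.358 to 0.231 ± 0.0027 FPKM (SD, n = 3 per group), and every library matched its label. Estimated depth ran from 39800000 to 54700000 fragments per library. All 9 genes listed as high in these cells, among them VIM and CD44, had at least 36.0 FPKM. Of 11 luminal genes listed as low 6 reached 2 FPKM, against that listing. Among them KRT19, KRT8 and KRT18 were at 379, 314 and 294 FPKM, above CD44 at 167 FPKM. ESR1 and PGR were at 0.002 FPKM each and FOXA1 at 0.03 FPKM. Of 9 markers of other cell types 1 reached 2 FPKM, the lysosomal gene CD68, which had 69.4 FPKM and was higher with si-NRDE2-2. The 9 markers of other cell types summed to between 65.5 and 71.1 FPKM in si-Control and between 76.2 and 79.3 FPKM in si-NRDE2-2, and CD68 made up nearly all of that sum (62.0, 62.8 and 67.3 FPKM, then 72.7, 76.6 and 74.9 FPKM). ACTA2, a smooth muscle actin, was called lower (2.31 ± 0.286 to 1.67 ± 0.376 FPKM, limma adjusted p = 0.04), and the B-cell gene MS4A1 was at 0 in every library. The part of these markers in the results was not tested. In bulk RNA, fewer cells that express a gene and less of its RNA per cell cannot be told apart.

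As a family the ZNF genes changed little after the NRDE2 siRNA. The summed level of all members was 1928, 1914 and 1881 FPKM in the si-Control libraries and 1903, 1912 and 1903 FPKM in the si-NRDE2-2 libraries. The groups overlapped in this sum. The median log2 fold change over the members, si-NRDE2-2 over si-Control, was -0.02, beside -0.01 over the 10518 other tested rows at 2 FPKM or more and -0.02 over all 11948 tested rows. Of the 294 members, 78 (26.5%) passed an adjusted p under 0.05, 42 higher and 36 lower, against 42.5% of all tested rows and 43.5% of the other rows at 2 FPKM or more. By direction, 20.3% of all tested rows were called higher and 22.2% lower, and 20.8% and 22.7% of the other rows at 2 FPKM or more. The direction of the calls among members depended on the scaling: with trends in GC content and length removed from each library, 49 members were called higher and 68 lower, so that 41.9% of calls were upward instead of 53.8%. Single libraries also moved the counts, to 26 higher and 22 lower without si-Control replicate 2 and, when si-NRDE2-2 replicate 2 was left out, to 25 higher and 25 lower.

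The size of the changes was also smaller among members than among the other rows. No value of 1 group reached into the other for 126 members (42.9%), 60 higher and 66 lower, against 52.9% of all tested rows (24.9% higher, 28.0% lower) and 53.8% of the other rows (25.4% higher, 28.4% lower). A call with a change of at least 1.25-fold was made for 22 members (7.48%), against 17.5% of all tested rows and 16.4% of the other rows. At 1.5-fold 2 members remained, ZNF600 and ZNF165, which makes 0.68% of members against 4.71% of all tested rows and 4.33% of the other rows. No member changed 2-fold, and 73 of the other rows did. From the tenth to the ninetieth percentile the log2 fold changes ran from -0.22 to 0.22 in members and from -0.30 to 0.31 in the other rows. These shares and ranges are descriptions, and the difference between the members and the other rows was not tested.

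**Figure D1:**
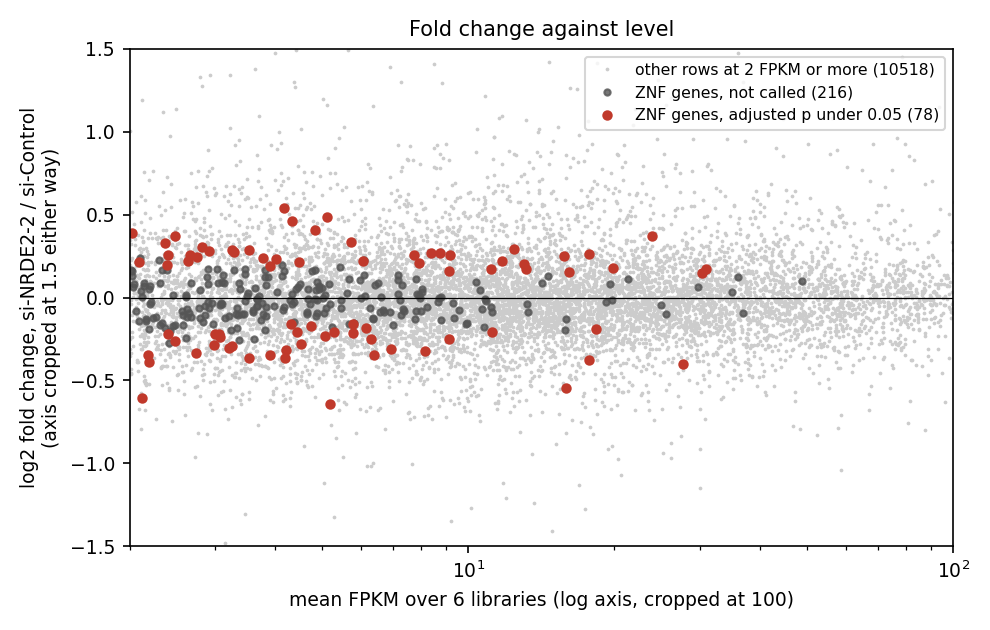
Log2 fold change of si-NRDE2-2 over si-Control (vertical axis, log2(FPKM + 0.1) scale, cropped at 1.5 either way) against mean FPKM over 6 libraries (horizontal log axis, cropped at 100). Each red or dark point is 1 of the 294 ZNF genes and each pale point 1 of the 10518 other rows; the ZNF genes lie between -0.64 and 0.54, inside the spread of the pale points.

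Many ZNF genes are expressed at low levels, and the members' median level of 4.33 FPKM was below the 13.0 FPKM of the other rows, so both were also compared within ranges of level. Between 2 and 3 FPKM, 24.0% of 75 members were called and 38.6% of 747 other rows. Between 3 and 5 FPKM the shares were 23.0% of 100 members and 39.6% of 1290 other rows, and between 5 and 10 FPKM 26.0% of 77 members and 43.3% of 2220 other rows. At 10 FPKM or more they were 40.5% of 42 members and 45.0% of 6261 other rows. The share called was thus lower among members in each of the 4 ranges, and least so in the highest. The median standard error of the log2 fold change was alike in the ranges, at 0.080 in members and 0.084 in other rows from 2 to 3 FPKM and at 0.052 and 0.051 at 10 FPKM or more. The median absolute log2 fold change was 0.10 in members and 0.16 in other rows from 3 to 5 FPKM, but 0.13 in both at 10 FPKM or more. Between libraries of the same group, the median absolute log2 difference over members was 0.06 to 0.11, and between libraries of different groups 0.12 to 0.15. For the other rows these ranges were 0.04 to 0.10 and 0.15 to 0.17, so in members the groups were closer to each other while libraries of a group were no closer.

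**Figure D2:**
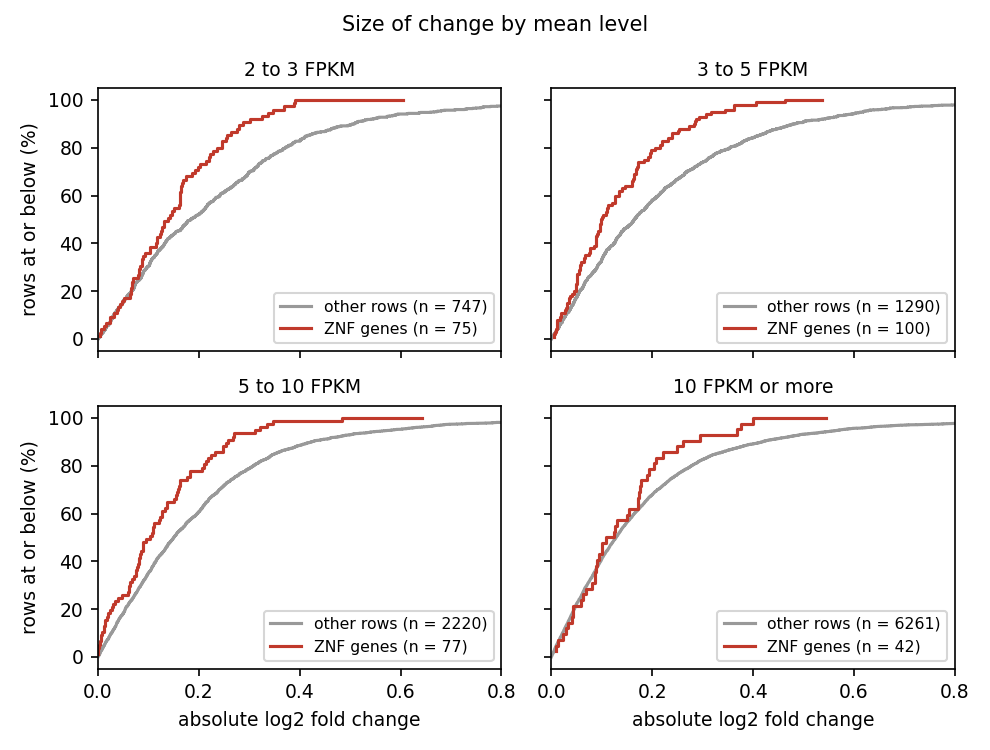
Cumulative share of rows (vertical axis, percent) with an absolute log2 fold change at or below the value on the horizontal axis, in 4 ranges of mean FPKM. Red lines are ZNF genes and grey lines the other rows; the red line runs above the grey one over most of the axis in the ranges under 10 FPKM, and at 10 FPKM or more the lines meet below about 0.2.

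The 5 members with the highest levels did not pass the test, with 1 exception. ZNF207, which encodes a microtubule-binding protein of the mitotic spindle, had the highest mean of the family, 48.7 FPKM, with 47.1, 48.1 and 45.8 FPKM in si-Control and 49.6, 50.1 and 51.4 FPKM in si-NRDE2-2. The groups did not overlap, but the log2 fold change was 0.10 ± 0.04 (SE) with an adjusted p of 0.072. ZNF146, a protein made almost wholly of fingers, went from 38.0 ± 1.17 to 35.7 ± 0.766 FPKM (adjusted p = 0.11), and passed once trends in GC content and length were removed (adjusted p = 0.00755). ZNF511 went from 34.6 ± 2.60 to 37.6 ± 0.547 FPKM (adjusted p = 0.09). It passed with libraries scaled to 1 FPKM total (adjusted p = 0.0395), with those trends removed (0.0151) and when si-Control replicate 3 was left out (0.00495). For ZNF185, an actin-associated protein with a LIM domain, the means were 34.5 ± 1.18 and 35.3 ± 0.673 FPKM (adjusted p = 0.56). ZNF593, which encodes a nucleolar protein of large ribosomal subunit assembly, was the exception, at 29.0 ± 2.76 and 32.6 ± 0.525 FPKM (log2 fold change 0.17 ± 0.06, adjusted p = 0.044). Its groups overlapped, since si-Control replicate 3 was at 32.1 FPKM, and the call was lost when any of the libraries other than si-Control replicate 3 was left out (adjusted p from 0.0808 to 0.156).

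The largest rise was that of ZNF12, a KRAB repressor gene. It was at 3.41, 3.57 and 3.17 FPKM in the control libraries and at 4.65, 4.99 and 5.22 FPKM in the knockdown libraries. Every knockdown library was thus above every control library, and the mean rose 1.46-fold (log2 fold change 0.54 ± 0.07, adjusted p = 0.000171). ZNF439, another KRAB gene, had 4.52, 4.45 and 3.76 FPKM in si-Control and 6.38, 5.90 and 5.60 FPKM in si-NRDE2-2 (1.40-fold, adjusted p = 0.000896). ZNF680, also with a KRAB box, had 3.66, 3.60 and 3.56 FPKM in si-Control and 4.32, 5.20 and 5.60 FPKM in si-NRDE2-2 (1.40-fold, adjusted p = 0.0018). Its control libraries were close together and its knockdown libraries spread widely, without overlap. ZNF655, with 6 fingers and no KRAB box, was the most abundant of the strong risers, at 21.2, 21.0 and 20.5 FPKM in si-Control and 28.2, 26.1 and 26.7 FPKM in si-NRDE2-2 (1.29-fold, log2 fold change 0.37 ± 0.04).

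Another 8 members complete the 12 largest rises without overlap between the groups. ZNF707 rose 1.33-fold, ZNF613 1.33-fold, ZNF792 1.30-fold and ZNF354A 1.27-fold, all KRAB genes. ZNF362, with 6 fingers and no KRAB box, rose 1.25-fold, a call lost without si-NRDE2-2 replicate 2 (adjusted p = 0.052). ZNF692, with 5 fingers and no KRAB box, rose from 11.1 ± 0.270 to 13.7 ± 1.30 FPKM. ZNF605 rose 1.22-fold and ZNF71 1.22-fold, and the call for ZNF71 was lost without si-Control replicate 1 (adjusted p = 0.0574). The 12 had mean levels over the libraries of 2.03 to 23.9 FPKM, and 9 of them encode a KRAB box. A KRAB box was found in 169 of the 287 members with a coding sequence. Of those 169, 20 were called higher, as were 22 of the 118 in which none was found.

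**Figure D3:**
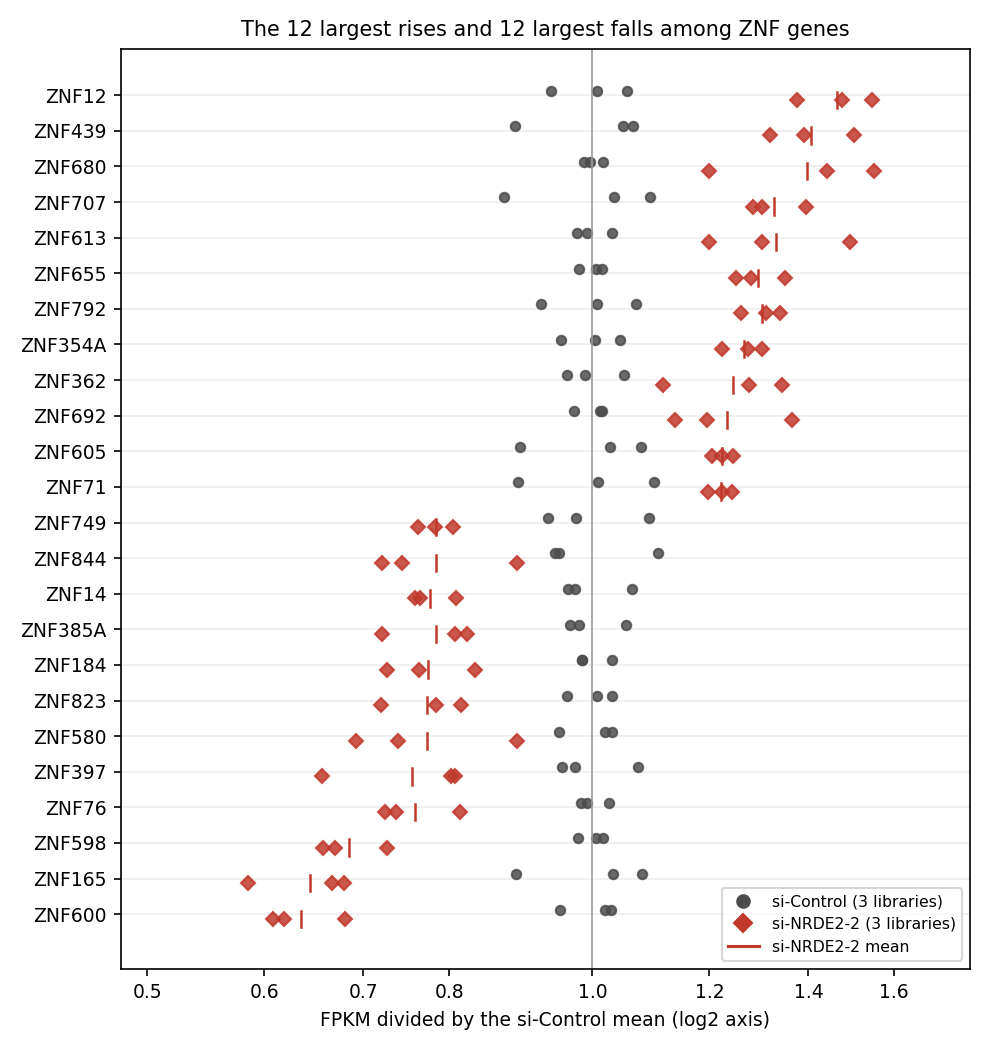
FPKM of each library divided by the mean of the 3 si-Control libraries (horizontal log2 axis) for the 12 largest rises and the 12 largest falls among called ZNF genes whose groups do not overlap. Grey circles are si-Control libraries, red diamonds si-NRDE2-2 libraries and red ticks their mean; the means run from 0.635 (ZNF600) to 1.46 (ZNF12) times control.

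The largest fall was that of ZNF600, the KRAB gene with 18 fingers shown above. It was at 6.46, 6.02 and 6.52 FPKM in the control libraries and at 3.85, 4.30 and 3.92 FPKM in the knockdown libraries. Its mean fell to 0.635 times control (log2 fold change -0.64 ± 0.06, adjusted p = 3.11e-05), with a wide gap between the groups. ZNF165, a SCAN gene whose product is known as a cancer-testis antigen, had 2.79, 2.30 and 2.67 FPKM in si-Control and 1.75, 1.51 and 1.72 FPKM in si-NRDE2-2 (0.644 times control, log2 fold change -0.60 ± 0.09, adjusted p = 0.00058). ZNF598, the ubiquitin ligase that marks collided ribosomes, had 19.2, 19.0 and 18.4 FPKM in si-Control and 13.7, 12.4 and 12.6 FPKM in si-NRDE2-2 (0.684 times control, log2 fold change -0.55 ± 0.05, adjusted p = 1.68e-05). All 3 fell in every knockdown library, and ZNF598 did so from the highest level of the 3. ZNF76, a close relative of the promoter-binding factor ZNF143, was at 31.3, 32.3 and 31.0 FPKM in si-Control and at 25.7, 23.2 and 22.8 FPKM in si-NRDE2-2 (0.758 times control, adjusted p = 0.000155). ZNF143 itself, named after its values were seen, had 8.78 ± 0.468 and 8.81 ± 0.406 FPKM.

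The other 8 of the 12 largest falls lay between 0.755 and 0.784 times control. ZNF397 is a SCAN gene, ZNF580 has 3 fingers, and ZNF385A, with 3 fingers, encodes an RNA-binding protein. ZNF580 went from 20.0 ± 0.881 to 15.5 ± 2.06 FPKM, and its si-NRDE2-2 replicate 1, at 17.8 FPKM, lay nearest to the controls. ZNF823, ZNF184, ZNF14, ZNF844 and ZNF749 are KRAB genes with control means of 2.45 to 4.72 FPKM. The fall of ZNF844 did not pass the test without si-Control replicate 2 (adjusted p = 0.0631).

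The remaining called members changed less. Of 30 others called higher, with log2 fold changes of 0.15 to 0.33, 27 had groups that did not overlap, and of 24 others called lower, at -0.32 to -0.16, 23 did. The 216 members that were not called lay between -0.28 and 0.24, and for 52 of them the groups did not overlap either. Of all called members, 39 kept their call under each of 16 settings (19 higher, 20 lower), counting the main fit that gave the calls. Outside the largest changes these included ZNF302 (7.93 ± 0.330 to 9.58 ± 0.293 FPKM), ZNF473, which serves the processing of histone mRNA (4.96 ± 0.107 to 4.07 ± 0.151 FPKM), and ZNF558 (log2 fold change -0.21 ± 0.05), all 3 named after their values were seen.

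Members were also divided by GC content. Of the 98 members with the lowest GC content 20.4% were called, of the 98 in the middle 31.6% and of the 98 with the highest 27.6%, against 42.2%, 44.9% and 43.5% of other rows in the same ranges of GC content. Across the 294 members Pearson's r between GC content and log2 fold change was -0.02, and across the 10357 other rows with a sequence it was -0.09. Genes are not independent replicates, and these values are descriptions. Once trends in GC content and length were removed over all rows, 39.8% of members were called instead of 26.5%, and 68 instead of 36 were lower. The same step raised the share among the other rows at 2 FPKM or more from 43.5% to 54.0%.

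Members were next divided by protein class. Of the 169 KRAB members, 20 were called higher and 21 lower (24.3%), with a median log2 fold change of -0.04. Of 118 members with a coding sequence in which no KRAB box was found, 22 were higher and 13 lower (29.7%), with a median of 0.01. The groups did not overlap for 43.2% of either class. Over all tested rows 42.5% were called, and the groups did not overlap for 52.9%. Among the 7 rows that GENCODE gives as pseudogenes or non-coding, 2 were lower. They were ZNF702P, at 9.04 ± 0.597 and 7.20 ± 0.373 FPKM, and ZNF204P, both named after their values were seen. By length of the array, 28.6% of 42 members with 1 to 4 fingers were called, 34.1% of 85 with 5 to 9, 24.5% of 94 with 10 to 14 and 20.0% of 60 with 15 or more. Of the 6 members without a classical finger, 0 were called by limma, and 2, ZNF703 and ZNF330, had an unadjusted p under 0.05.

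Of 17 members with a SCAN domain, 2 were called higher and 4 lower, 35.3% against 42.5% of all tested rows. In 12 of the 17 the log2 fold change was negative, as it was in 162 of all 294 members, and the median was -0.09. Beside ZNF165 and ZNF397, ZNF202, which represses genes of lipid metabolism, fell, at means of 7.67 ± 0.182 and 6.17 ± 0.123 FPKM (log2 fold change -0.31 ± 0.05, adjusted p = 0.00082), as did ZNF449 (log2 fold change -0.24 ± 0.09, adjusted p = 0.0496). The call for ZNF449 was lost when any 1 library other than si-NRDE2-2 replicate 3 was left out (adjusted p from 0.0662 to 0.139). ZNF24 went against them, from 17.0, 16.2 and 15.3 FPKM in si-Control to 17.8, 19.4 and 21.0 FPKM in si-NRDE2-2 (log2 fold change 0.26 ± 0.06, adjusted p = 0.00738), and so did ZNF75D (log2 fold change 0.25 ± 0.07), whose call was lost without si-Control replicate 2 (adjusted p = 0.068). ZNF274, a SCAN and KRAB gene known to recruit SETDB1 to other ZNF genes, was at 19.8, 19.1 and 19.3 FPKM in si-Control and did not pass the test (log2 fold change -0.03 ± 0.05, adjusted p = 0.641). ZNF449, ZNF75D and ZNF274 were named after their values were seen.

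**Figure D4:**
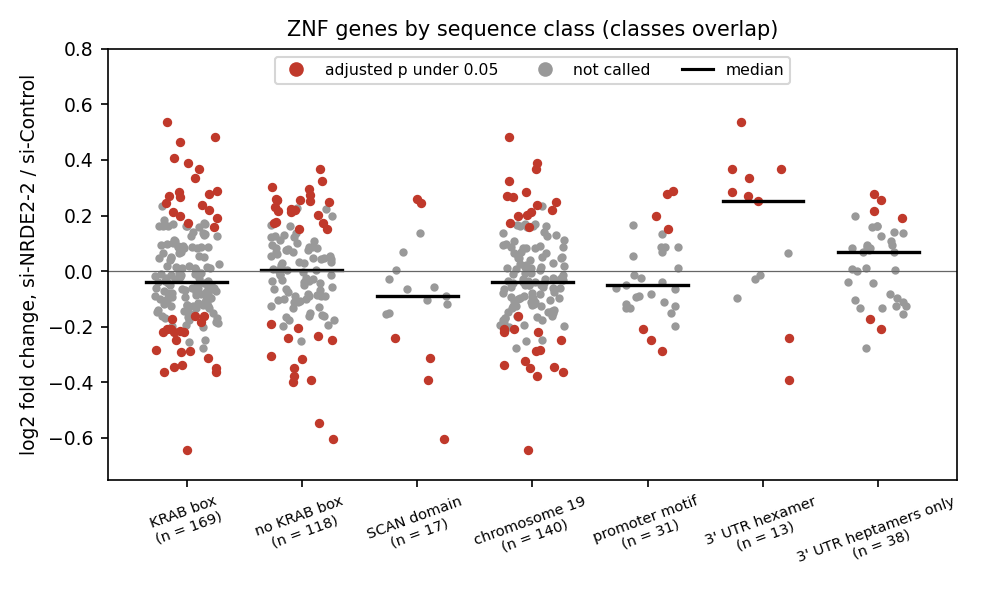
Log2 fold change of each ZNF gene (vertical axis, log2(FPKM + 0.1) scale) in 7 classes that overlap; red points passed an adjusted p under 0.05 and black bars are medians. The 13 genes with the 3′ UTR hexamer stand highest, with a median of 0.25, and the 17 SCAN genes lowest, with a median of -0.09. The hexamer and heptamers had been picked from the fold changes of these same libraries, so the place of those classes is not independent evidence.

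Members were also grouped by known role, in lists described by their counts alone. Of 13 members known from RNA or ribosome biology, 1 was called higher (ZNF593) and 3 lower (ZNF598, ZNF385A and ZNF584), 30.8% against 42.5% of all tested rows, with a list median of -0.01. ZNF584 went from 9.91 ± 0.377 to 8.34 ± 0.591 FPKM. Of 21 members known as partners of chromatin complexes, 6 were higher and 1 lower, with a median of 0.07. That is 33.3% called, against 42.5% of all tested rows (20.3% higher and 22.2% lower). Those called higher were ZNF280D (2.96 ± 0.0689 to 3.60 ± 0.208 FPKM), ZNF24, ZNF532, ZNF217, ZNF518B and ZNF281. ZNF592, which works in a complex with ZNF532 and ZNF687, was lower, at 5.47 ± 0.430 and 4.64 ± 0.0947 FPKM. The calls for ZNF532 and ZNF217 were lost without si-NRDE2-2 replicate 2 (adjusted p = 0.0535 and 0.0849) or replicate 3 (0.0596 and 0.0789). The call for ZNF592 was lost without any 1 of these libraries and of si-Control replicates 1 and 2 (adjusted p from 0.053 to 0.0917). All 3 calls were also lost with libraries scaled to 1 FPKM total (adjusted p = 0.0714, 0.059 and 0.0539). The calls for ZNF518B and ZNF281 were lost with that scaling (0.103 and 0.107), with the replicate block (0.071 and 0.069) and when replicate 2 or 3 of either group was left out (0.0853 to 0.124 for ZNF518B and 0.0852 to 0.153 for ZNF281). The call for ZNF281 was also lost without si-Control replicate 1 (0.0645). ZNF518B and ZNF281 were named after their values were seen.

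Among 6 tested members linked to breast cancer or proliferation, 1 was called higher and 2 lower. Over all tested rows 42.5% were called (20.3% higher and 22.2% lower). ZNF217, which is amplified in part of breast tumours, was higher (18.6 ± 0.412 to 21.1 ± 1.34 FPKM), and ZNF165 and ZNF395 were lower. As given above, the call for ZNF217 was lost without si-NRDE2-2 replicate 2 or 3 and with libraries scaled to 1 FPKM total. ZNF395 went from 19.5 ± 0.557 to 17.1 ± 0.485 FPKM. ZNF367, a cell-cycle linked gene, and ZNF703, which is co-amplified in luminal tumours, did not pass, at adjusted p-values of 0.069 and 0.087. ZNF367 passed without si-NRDE2-2 replicate 1 (adjusted p = 0.0082) and ZNF703 without si-Control replicate 3 (adjusted p = 0.0274). Of 9 tested members known to bind retroelements, 0 were called by limma, against 42.5% of all tested rows. For 1, ZNF765, the unadjusted p was under 0.05 and the groups did not overlap. ZNF765 had 2.77, 2.55 and 2.49 FPKM in si-Control and 2.02, 2.41 and 2.33 FPKM in si-NRDE2-2 (adjusted p = 0.079). It passed as lower once trends in GC content and length were removed (adjusted p = 0.0094), and ZNF587 passed as lower without si-Control replicate 3 (adjusted p = 0.024). The L1-binding ZNF93 was at 3.34 ± 0.408 and 3.07 ± 0.221 FPKM (adjusted p = 0.36).

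By position in the genome, 140 of the 294 members lie on chromosome 19 in RefSeq (GRCh38.p14). Of these, 15 were called higher and 15 lower (21.4%), against 27 and 21 (31.2%) of the 154 members on other chromosomes. Over all tested rows 42.5% were called. The chromosome 19 members also had lower levels, with a median of 3.79 FPKM against 4.95 FPKM. In RefSeq order, 131 members stood next to at least 1 other member, in 44 runs, and 26.7% of them were called, as were 26.4% of the 163 members outside runs. The longest run, of 8 members from ZNF222 to ZNF284, had 1 called. In the run that holds ZNF600, the adjusted p-values were 0.0541 for ZNF28, 0.489 for ZNF320, 0.0362 for ZNF468, 3.11e-05 for ZNF600 and 0.897 for ZNF611. ZNF580 and ZNF784 belong to 1 run and were called in opposite directions, at log2 fold changes of -0.38 and 0.33. The calls for ZNF468 and ZNF784 were near the threshold: that for ZNF468 was lost when any 1 library was left out (adjusted p from 0.0531 to 0.115), and that for ZNF784 when any 1 library other than si-Control replicate 1 and si-NRDE2-2 replicate 3 was (0.0951 to 0.168). The genes of these runs other than ZNF600 and ZNF580 were named after their values were seen, for their place beside them.

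Duplication leaves ZNF genes with stretches in common, where reads cannot be placed on 1 gene. In 47 members at least 10% of the transcript lay in 50-base stretches found in another gene, and 11 of them were called (23.4%). The share was 27.1% in the other 247 and 42.5% over all tested rows. Any other gene name was counted, not only duplicated ZNF genes. ZNF395, for one, shared 41.7% with FBXO16, and ZNF511 31.1% with the locus ZNF511-PRAP1. ZNF600 shared 18.2% of its transcript, mostly with ZNF611 and ZNF808, and ZNF354A shared 20.7%, mostly with ZNF354B. The unit below is the same, base for base, in ZNF600 and ZNF611.
ZNF600 and ZNF611: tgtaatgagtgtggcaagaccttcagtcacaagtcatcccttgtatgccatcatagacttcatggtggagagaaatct
ZNF611, which would share such reads, had 2.44 ± 0.221 and 2.47 ± 0.169 FPKM (adjusted p = 0.90), and ZNF808 had 2.59 ± 0.166 and 2.21 ± 0.150 FPKM (adjusted p = 0.0485). The call for ZNF808 was lost when any 1 library other than si-Control replicate 3 and si-NRDE2-2 replicate 2 was left out (adjusted p from 0.104 to 0.161). The sources used here do not say how the authors' counting treated such reads. The levels of ZNF600, ZNF354A, ZNF320 and other members with shared stretches are uncertain to that extent.

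Members were also searched for 3 short sequences in the 3′ UTR. They were the hexamer GACGTA, the heptamer GACAGTA and another heptamer, GACTGTA. All 3 had been picked from the fold changes of these same libraries in an earlier analysis, so their link to a rise is not independent evidence. At least 1 of the 3 was found in the 3′ UTR of 51 of 285 members (17.9%) and of 18.0% of all tested rows with a 3′ UTR. Of the 51 carriers, 11 were called higher and 4 lower (29.4%, median log2 fold change 0.07). Of the 234 members without, 31 were higher and 29 lower (25.6%, median -0.03). Over all tested rows 42.5% were called. The hexamer GACGTA was in 13 members, of which 7 were higher and 2 lower, with a median of 0.25. In the other rows at 2 FPKM or more it was in 397, of which 221 were higher and 29 lower, with a median of 0.21. Of the 12 largest rises without overlap, 5 were carriers of GACGTA: ZNF12, ZNF655, ZNF792, ZNF354A and ZNF71. The sites of ZNF12, ZNF354A and ZNF397, a carrier that fell, are shown from the GENCODE transcripts with the hexamer in capitals.
ZNF12: gtaaattttGACGTAaatagtttg
ZNF354A: tttcctacaGACGTAtatgctaga
ZNF397: aaaaggtagGACGTAaagtaggaa
These 3 stand for the carriers because they are a strong rise, a rise with shared stretches and a fall. ZNF175 (log2 fold change 0.27 ± 0.06) and ZNF319 (0.25 ± 0.07) were the other called risers with GACGTA. The call for ZNF319 was lost without si-Control replicate 1 (adjusted p = 0.0572) or si-NRDE2-2 replicate 2 (0.0799). ZNF449 fell, and ZNF529, ZNF37A, ZNF585A and ZNF587 were not called, with log2 fold changes from -0.10 to 0.07. The other 7 of the 12 largest rises, ZNF439, ZNF680, ZNF707, ZNF613, ZNF362, ZNF692 and ZNF605, carried none of the 3 sequences. The 38 members with only a heptamer had 4 higher and 2 lower (15.8%), with a median of 0.07. That share was below the 25.6% of members without any of the 3 sequences. Of 1375 other rows at 2 FPKM or more with only a heptamer, 501 were higher and 188 lower (50.1%), with a median of 0.06.

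A promoter motif of the kind that ZNF143 and ZNF76 are known to bind was more frequent in members than in promoters at large. It was searched on both strands of the RefSeq promoters (GRCh38.p14) as ACTACA followed, after any 2 bases, by TCCCA. A match was in 31 of 252 members with a promoter in the table (12.3%) and in 407 of all 27305 promoters (1.49%). The 27305 were not limited to expressed genes, as the members were, and the share in the other expressed rows was not counted. The share was 15.2% in KRAB members and 7.92% in the others. Windows around the sites of 4 called members are shown, of which ZNF268 was higher and ZNF420, ZNF584 and ZNF331 were lower. The match is in capitals, on the strand that reads ACTACA, to let the flanks be compared.
ZNF420: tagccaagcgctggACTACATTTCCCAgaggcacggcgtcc
ZNF268: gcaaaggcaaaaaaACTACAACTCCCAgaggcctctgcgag
ZNF584: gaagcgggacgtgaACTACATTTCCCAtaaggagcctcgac
ZNF331: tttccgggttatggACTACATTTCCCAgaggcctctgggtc
The promoters lie at chr19:37078183-37078482 (ZNF420, plus strand), chr12:133181245-133181544 (ZNF268, plus strand), chr19:58408399-58408698 (ZNF584, plus strand) and chr19:53520764-53521063 (ZNF331, plus strand). The matches of ZNF268 and ZNF584 are on the minus strand. ZNF420 has a second match in the same promoter. Over the 31 promoters there were 37 matches, 26 of them on the strand opposite the gene, and 25 began within 100 bases before the start site. Of the 31 carriers, 4 were called higher and 3 lower (22.6%), with a median of -0.05. The carriers called higher and not shown were ZNF605 (log2 fold change 0.29 ± 0.08, limma adjusted p = 0.0131), ZNF606 (0.20) and ZNF32 (0.15). The call for ZNF606 was lost when any 1 library other than si-NRDE2-2 replicate 1 was left out (limma adjusted p from 0.0581 to 0.131). That for ZNF32 was lost without replicate 1 of either group, si-Control replicate 2 or si-NRDE2-2 replicate 3 (0.077 to 0.148). Of the 221 promoters without it 25.8% were called, with a median of -0.01. Over all tested rows 42.5% were called. ZNF268 was higher (2.63 ± 0.112 to 3.21 ± 0.135 FPKM), ZNF420 lower (3.30 ± 0.219 to 2.68 ± 0.201 FPKM) and ZNF331 lower (log2 fold change -0.21, adjusted p = 0.0469). The call for ZNF420 was lost when si-Control replicate 1 or 2 was left out, or when si-NRDE2-2 replicate 2 was (adjusted p from 0.0558 to 0.0612). The groups of ZNF331 overlapped, with si-Control replicate 3 at 5.22 FPKM and si-NRDE2-2 replicate 1 at 5.33 FPKM, and its call was lost when any 1 of the other libraries was left out (adjusted p from 0.13 to 0.157). ZNF331, ZNF606 and ZNF32 were named after their values were seen.

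The partners that KRAB proteins work through included genes with larger changes than any member. Of 29 tested genes of a KRAB co-repressor list, 6 were called higher and 9 lower, which makes 51.7% against 42.5% of all tested rows. The deacetylase gene HDAC1 fell from 64.9, 68.2 and 67.9 FPKM in si-Control to 37.1, 39.1 and 36.6 FPKM in si-NRDE2-2, or 0.561 times control (log2 fold change -0.83 ± 0.04, adjusted p = 4.11e-07). CHD3, a remodelling subunit of the NuRD complex, fell to 0.630 times control, and DNMT1, the maintenance DNA methyltransferase, to 0.652 times control. MORC2, an ATPase of the HUSH silencing pathway, and KDM1A, a histone demethylase, fell to 0.810 and 0.859 times control. CBX5, also on the list, fell further, to 0.746 times control (limma adjusted p = 0.0019). CBX1 and CBX3 did not pass (adjusted p = 0.14 and 0.93). HDAC2 and CHD4, the paralogs of HDAC1 and CHD3, were among the genes called higher, at log2 fold changes of 0.15 each. TRIM28 itself was at 86.8, 91.7 and 92.2 FPKM in si-Control and at 96.8, 91.9 and 89.2 FPKM in si-NRDE2-2 (adjusted p = 0.55), and SETDB1 at 8.97 ± 0.763 and 9.52 ± 0.242 FPKM (adjusted p = 0.30). The count of genes called higher fell to 3 when si-Control replicate 2 was left out and to 2 when si-NRDE2-2 replicate 2 or 3 was. HDAC2, CHD4, CBX5, CBX1, CBX3, TRIM28 and SETDB1 were named after their values were seen.

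**Figure D5:**
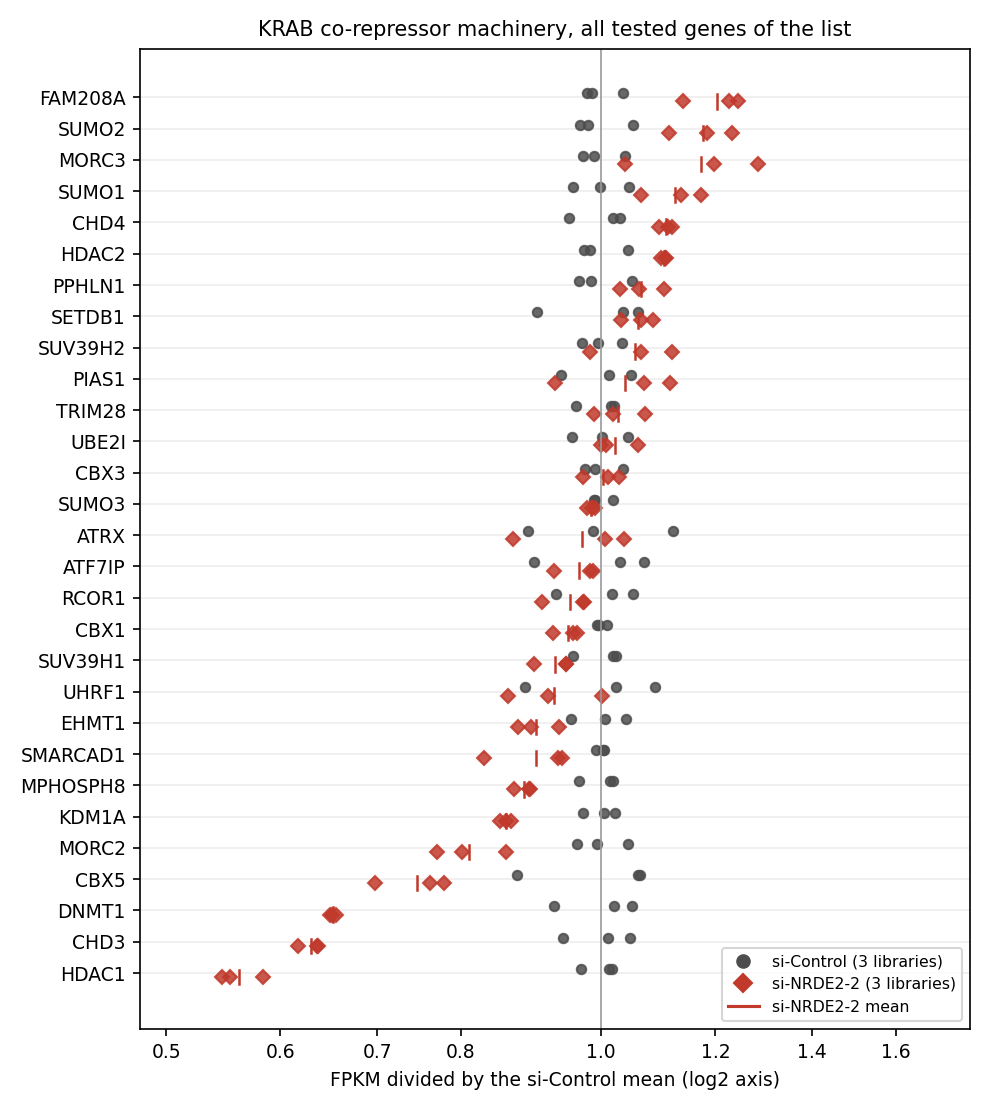
FPKM of each library divided by the mean of the 3 si-Control libraries (horizontal log2 axis) for the 29 tested genes of the KRAB co-repressor list, ordered by the fold of their means. Grey circles are si-Control libraries, red diamonds si-NRDE2-2 libraries and red ticks their mean; HDAC1, CHD3 and DNMT1 stand apart at 0.561, 0.630 and 0.652 times control, and TRIM28 overlaps its controls.

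Zinc finger genes with other family names gave a further comparison. Of 74 tested rows named ZBTB, ZSCAN, ZKSCAN, ZFP, PRDM, ZFHX, ZEB, ZIC or ZIK, 9 were called higher and 18 lower (36.5%), with a median of -0.06. The share over all tested rows was 42.5% (20.3% higher and 22.2% lower). The count of these 74 rows called lower was 11 when si-Control replicate 1 was left out, 10 when si-Control replicate 2 was and 11 when si-NRDE2-2 replicate 3 was. ZBTB18, a repressor with a BTB domain, rose from 10.5 ± 0.382 to 14.5 ± 0.347 FPKM. ZBTB25 fell to 0.678 times control, ZBTB5 to 0.794 and PRDM4 to 0.802. ZFP36, which also fell, to 0.772 times control, shares the name but encodes an mRNA-decay factor with another type of finger.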

How the data were processed

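RNA was measured in 3 si-Control and 3 si-NRDE2-2 libraries, grouped by sample title. The authors deposited FPKM values per gene. The submitters' processing notes name the hg19 build, DESeq2 1.10.1 and STAR 2.5.1b without their roles. The program, annotation and strand setting behind the FPKM are not given in the sources used here. Another 4 columns of values were not used. The deposited FPKM values were used unscaled. The 11948 rows that reached 1 FPKM in 3 or more libraries were fitted with limma 3.58.1 (R 4.3.3) on log2(FPKM + 0.1), which understates changes of low genes, with trended, robust prior variance, a single term for the group, and p-values adjusted by Benjamini-Hochberg over all rows. The threshold for a call was an adjusted p of 0.05. Errors are SD of FPKM (n = 3) or SE of the log2 fold change, and folds are ratios of mean FPKM. Steps between low values gave an estimate of depth.

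All 294 members matched RefSeq (GRCh38.p14) and GENCODE release 29 by symbol; 1 transcript per gene served for fingers, KRAB and SCAN domains (sequence profiles), 3′ UTRs and shared stretches of 50 bases. Named members were the 12 largest rises and falls among called members without overlap, the 5 highest levels, the threshold's neighbours, up to 5 genes per list by adjusted p, up to 4 per sequence class by absolute fold change, and members sharing sequence; the 13 GACGTA carriers are given in full. The members, lists and classes were chosen with earlier results of these data known. Pseudocounts, filters, scalings, a replicate block and left-out libraries were tried as alternatives. The fit was tested on simulated data.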

Additional observations from a re-analysis of the deposited data

How the results depend on the processing

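The share of members called was below that of the other tested rows, which are not matched for level here, under each of the alternatives tried, from 16.3% against 32.7% (without si-Control replicate 2) to 39.8% against 54.0% (trends in GC content and length removed). With that trend removal 68 members were lower instead of 36. At a mean of at least 5 FPKM, where fewer members are tested, 21 were higher and 16 lower, and of the other zinc finger names 3 were higher and 9 lower. With carriers of the 3′ UTR sequences left out, 4 other names were higher. With 1 library left out in turn, the count of members was 25 to 43 higher and 22 to 47 lower, that of co-repressor genes 2 to 6 higher, and that of other names 10 to 18 lower. The median over members ran from -0.0473 to -0.0046 in these fits. Replicate numbers are shared by the groups but do not pair the samples: the deviations of same-numbered libraries correlated at -0.0117, 0.171 and -0.0349. With the replicate block 32 members were higher and 31 lower. Of the called members, 39 (19 higher, 20 lower) kept their call in each of 16 fits over all members, the main fit included. Leaving out small RNA rows, or members that share sequence, was added after seeing the data. Depth limits the members of low level most, and the program behind the FPKM values is not known.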
